A study of Mus musculus with 29 samples.

Results

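The binding sites of wild-type FOXA1 were mapped in NIH-3T3 cells, an established line of mouse embryonic fibroblasts, and comprise every peak called in either of the duplicate anti-HA ChIP-seq lists of FOXA1-HA. Replicate 1 holds 6033 peaks and replicate 2 holds 1099, together 7132 of the 304922 peaks in the 28 lists of the series. FOXA1-HA carries HA tags at its C-terminus and was expressed from a lentiviral transgene switched on overnight with 500 ng/ml doxycycline in cells that constitutively make the transactivator rtTA3G, and chromatin was fixed with 1% formaldehyde. The 21 other constructs used for comparison were BHLHB8-HA, BRACHYURY-HA, CDX2-HA, DLX1-HA, DLX6-HA, DUXBL-HA, EBF1-HA, HLF-HA, MAX-HA, NANOG-HA, OCT4-HA, PRR3-HA, RHOX11-HA, SIX6-HA, SOX2-HA, SOX15-HA, TEAD1-HA, THAP4-HA, TOX3-HA, ZFP319-HA and the co-expression of SOX2-YPET with OCT4-HA, all induced and fixed in the same way. FOXA1_RR-HA and FOXA1_SW-HA, mutants made to weaken nonspecific contact with DNA, were kept apart from these. Every value therefore describes an induced, tagged transgene, not endogenous FOXA1. Only coordinates are given for the peaks. The depth behind a list is therefore unknown, and more sites in one library cannot be told apart from deeper sequencing of it. Intervals in parentheses are 95% exact binomial intervals and cover counting error over peaks, not the error between libraries.

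FOXA1 is a pioneer factor: its winged-helix (forkhead) domain can bind DNA that is wrapped in nucleosomes and open chromatin for other factors. It is best known for specifying liver and other endoderm, and for its work beside steroid hormone receptors in breast and prostate epithelium. The forkhead sequence was searched as TGTTTAC or TATTTAC on both strands in the central 200 bp of each peak. AP-1, the dimers of FOS and JUN proteins that mark many fibroblast enhancers, was searched as TGAGTCA or TGACTCA, which are each other's reverse complement. Control windows of the same length lay 5 kb downstream of each peak and touched no peak of any list, and 6.09% of the 5400 control windows of replicate 1 held a forkhead match and 3.07% an AP-1 match. A match is a run of letters and was not taken as a bound site.

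Peaks were sorted by an overlap of at least 1 bp. In replicate 1, 854 of 6033 peaks were reproduced (14.2%, interval 13.3 to 15.1) and 5179 were found in replicate 1 only. In replicate 2, 853 of 1099 were reproduced (77.6%, interval 75.03 to 80.05) and 246 were found in replicate 2 only. The midpoints of overlapping peaks lay a median of 24 bp apart and within 100 bp of each other for 779 of 854 sites. The smallest overlaps that admitted a peak to the reproduced group were 17 and 25 bp, and the nearest misses lay 7 and 47 bp away. The midpoint distances cover only pairs that the overlap rule had selected, so their closeness is partly built in. With a reciprocal overlap of 50% the reproduced share was 12.7% in replicate 1 and 69.7% in replicate 2.

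The following sites show what the central 200 bp of a FOXA1 site look like, with forkhead matches in capitals. The first pair are the reproduced peaks with the most matches, 3 each, and lie at fewer than 10 other constructs. The Dusp4 site, chr8:34578157-34578356, lies between genes 229 kb upstream of Dusp4, which encodes a phosphatase of MAP kinases. The BC034090 site, chr1:155322241-155322440, lies in an intron, 77.9 kb upstream of the nearest protein-coding start, that of BC034090. It was touched by 0 other constructs. Sequences are those of the plus strand of GRCm38.
Dusp4 site: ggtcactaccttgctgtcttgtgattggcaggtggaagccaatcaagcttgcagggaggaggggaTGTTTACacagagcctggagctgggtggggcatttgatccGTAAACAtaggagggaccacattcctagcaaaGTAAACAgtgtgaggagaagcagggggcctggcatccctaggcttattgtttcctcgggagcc
BC034090 site: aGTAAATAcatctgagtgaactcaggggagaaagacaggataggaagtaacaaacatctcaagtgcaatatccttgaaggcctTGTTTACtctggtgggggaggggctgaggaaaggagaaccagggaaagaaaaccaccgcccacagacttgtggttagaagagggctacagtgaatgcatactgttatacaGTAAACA
The next are the widest of the reproduced sites with 2 matches. The Npr3 site, chr15:11699780-11699979, lies in an intron 206 kb from the start of Npr3, the clearance receptor of natriuretic peptides. The Rgs2 site, chr1:143946991-143947190, lies between genes 56.9 kb from Rgs2, a regulator of G-protein signalling.
Npr3 site: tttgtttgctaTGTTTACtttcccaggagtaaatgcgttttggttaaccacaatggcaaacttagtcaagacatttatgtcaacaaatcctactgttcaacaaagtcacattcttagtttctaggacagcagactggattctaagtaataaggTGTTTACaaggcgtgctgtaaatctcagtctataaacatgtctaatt
Rgs2 site: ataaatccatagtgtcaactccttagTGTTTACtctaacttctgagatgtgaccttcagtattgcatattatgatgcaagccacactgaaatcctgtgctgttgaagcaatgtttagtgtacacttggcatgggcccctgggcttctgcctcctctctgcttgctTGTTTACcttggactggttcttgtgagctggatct
At Dusp4 and BC034090 the matches stand on both strands, and at Npr3 and Rgs2 they share 1 strand. Other constructs touched the Dusp4 site (2), the Npr3 site (7) and the Rgs2 site (6), with MAX-HA among them each time. The last 3 sites, also shared, are shown for the comparison by number of constructs given later. The Myadm site, chr7:3287448-3287647, 1.53 kb upstream of Myadm, is the widest reproduced peak that holds a forkhead match, touches MAX-HA and has fewer than 10 other constructs, and it was chosen after its values were seen. The Hmgb1 site, chr5:149049834-149050033, is the widest with a match that touches MAX-HA at all and was shared with 18 other constructs, in an intron 1.37 kb from the start of Hmgb1, which encodes an abundant chromatin protein. The Hnrnpa3 site, chr2:75662749-75662948, is the middle of the widest reproduced peak at 10 or more other constructs. It covers 2098 bp in replicate 1 and 1594 bp in replicate 2 with its midpoint in a coding exon of Hnrnpa3, an RNA-binding protein gene, was shared with 20 other constructs and holds no match.
Myadm site: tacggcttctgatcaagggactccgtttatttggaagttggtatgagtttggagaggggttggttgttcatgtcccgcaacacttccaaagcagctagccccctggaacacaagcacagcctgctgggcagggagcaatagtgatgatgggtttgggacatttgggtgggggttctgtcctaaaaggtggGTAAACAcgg
Hmgb1 site: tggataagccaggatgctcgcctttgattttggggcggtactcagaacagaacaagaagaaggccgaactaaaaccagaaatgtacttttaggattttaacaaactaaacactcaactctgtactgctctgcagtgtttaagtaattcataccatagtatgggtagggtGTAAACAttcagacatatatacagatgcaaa
Hnrnpa3 site: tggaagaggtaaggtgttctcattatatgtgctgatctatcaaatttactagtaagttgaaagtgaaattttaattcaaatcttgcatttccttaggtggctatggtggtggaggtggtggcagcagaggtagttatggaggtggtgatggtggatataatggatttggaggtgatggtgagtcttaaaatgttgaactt

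Before the results, 1 list has to be set apart because it goes against its label. MAX, the partner of MYC, binds the E-box CACGTG, yet 2.92% of the 3836 peaks of the library labelled MAX-HA held it, against 2.34% of its control windows, while 41.8% held a forkhead match (interval 40.2 to 43.3) against 6.26%. By covered bases it shared 23.9% of their union with FOXA1-HA replicate 1 and 13.5% with replicate 2, and the FOXA1-HA replicates shared 12.6% with each other. Such a share is bounded by list size, and replicate 2 is the shortest of these lists. Counted by peaks, FOXA1-HA replicate 1 touched 77.6% of replicate 2 peaks and the library labelled MAX-HA touched 60.4%. Of replicate 1 peaks, replicate 2 touched 14.2% and the library labelled MAX-HA 34.1%. Results that rest on the library labelled MAX-HA are given with and without it, and why it resembles FOXA1-HA was not tested.

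The forkhead letters stood out in both FOXA1-HA lists. In replicate 1, 2244 of 6033 peaks held a match (37.2%, interval 36.0 to 38.4), and in replicate 2, 364 of 1099 did (33.1%), against 6.09% and 5.39% of their controls. Over the other 21 constructs the share ran from 2.15% in TEAD1-HA to 41.8% in the library labelled MAX-HA, with a median of 5.33%, and below that library the next was CDX2-HA with 12.2%. FOXA1-HA lay above 20 of the 21. The mean of 35.2% over the FOXA1-HA lists exceeded the mean of the other constructs, 7.32%, by 27.8 percentage points. This difference did not pass the threshold (exact permutation test over lists, two-sided p = 0.0237, adjusted p = 0.0949 over 4 measures). The 2 FOXA1-HA lists are replicates of 1 construct but entered as 2 values, where every other construct entered as 1. All p-values over lists therefore treat these replicates as independent. With 1 FOXA1-HA list the smallest possible p is 0.0909. Without the library labelled MAX-HA, an alternative added after the values were seen, the difference was 29.6 points. It then passed the threshold (exact permutation p = 0.00866, the smallest that 2 lists against 20 can give, adjusted p = 0.0346). That library alone lay above FOXA1-HA, so its removal fixed this outcome, which therefore decides nothing. AP-1 matches stood in 26.1% and 25.7% of the FOXA1-HA lists and in 1.42% to 28.5% of the other constructs, taking the mean where a construct has more than 1 list, a difference of 11.2 points between the means that did not pass the threshold (exact permutation adjusted p = 0.364, and 0.381 without the library labelled MAX-HA).

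**Figure D1:**
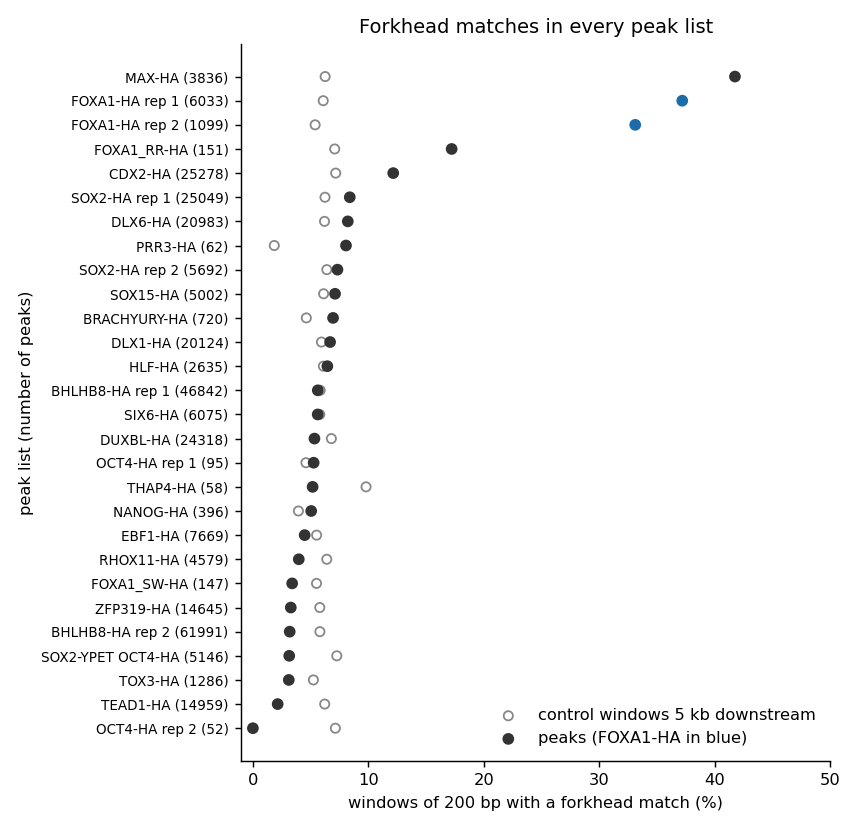
Share of 200 bp windows with a forkhead match (x axis, %) for each peak list (filled points, FOXA1-HA in blue) and its control windows (open points), with the number of peaks in parentheses. The FOXA1-HA lists stand at 37.2% and 33.1%, and of the other lists the one labelled MAX-HA lies above them at 41.8%.

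Among all words of 7 letters, the one that exceeded its control share most at reproduced sites was the AP-1 word TGACTCA, present in 31.9% of windows against 3.07%. The forkhead word TGTTTAC came next with 29.2% against 2.94%. TATTTAC stood in 14.2% against 3.24%, and TGTTTGC, which differs from the searched core at 1 letter, stood in 17.0% against 3.65%. TGTTGAC, a further spelling close to the forkhead core, stood in 14.99% against 2.02%. With TGTTTGC and TATTTGC added to the core, 55.2% of reproduced peaks held a match, against 11.7% of controls. TGTGGTT, the core bound by RUNX factors, stood in 14.3% of reproduced windows (interval 12.0 to 16.8) and 4.78% of controls. CCAAT, the NF-Y word, went the other way with 18.9% against 28.04%. The base after the 7 letters was G in 7 of 387 matches at reproduced sites (1.81%) and in 11 of 342 control matches (3.22%), and was thus rare in both.

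Forkhead matches sat near the peak's centre. At reproduced sites the median distance of a match from the centre of the window was 24 bp and 50.6% of 389 matches lay within 25 bp, where 24.6% of control matches did. At replicate 1 only sites the median was 25 bp and 50.6% of 2086 matches lay within 25 bp. The central 20 bp bins held 8.78 and 9.84 matches per 100 reproduced windows and 8.11 and 8.53 per 100 replicate 1 only windows, against 0.685 and 0.556 per 100 control windows. At replicate 2 only sites 13 matches were found in all, 7 of them within 25 bp.

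**Figure D2:**
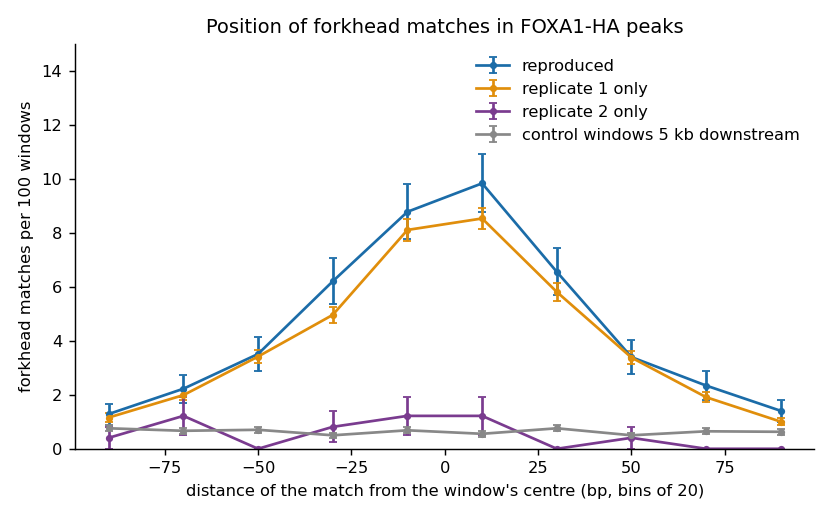
Forkhead matches per 100 windows (y axis) by distance from the centre of the window (x axis, bp, bins of 20) for the 3 groups of FOXA1-HA peaks and for control windows, with bars for the counting error (square root of the count). Reproduced and replicate 1 only peaks rise to 9.84 and 8.53 matches per 100 windows beside the centre, and replicate 2 only peaks do not rise above 1.22.

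Reproduced sites carried both sequences more often than sites of replicate 1 only. A forkhead match was present in 348 of 854 reproduced peaks (40.7%, interval 37.4 to 44.1) and 1896 of 5179 replicate 1 only peaks (36.6%, interval 35.3 to 37.9), a difference of 4.14 points (Fisher's exact test, two-sided, adjusted p = 0.0250 over 8 comparisons of peaks). AP-1 was present in 31.9% of reproduced (interval 28.7 to 35.1) and 25.1% of replicate 1 only peaks (interval 24.0 to 26.3; Fisher's exact test, adjusted p = 7.02e-05). These tests treat peaks, not libraries, as the units. Peak width moved with the groups: the median was 365 bp for reproduced and 253 bp for replicate 1 only peaks. Among replicate 1 peaks of at least 300 bp, an alternative added after the values were seen, forkhead stood in 42.3% of 681 reproduced and 35.7% of 1532 replicate 1 only peaks (Fisher's exact test, adjusted p = 0.00427), and AP-1 in 32.9% and 23.4% (Fisher's exact test, adjusted p = 5.48e-06). Dropping narrower peaks from both lists before sorting moved 472 of those 681 peaks out of the reproduced group. The forkhead difference was then -1.51 points and the AP-1 difference 3.67 points, neither past the threshold. With replicate 1 peaks cut into 4 bins of about equal number by width, 2.01% were reproduced in the narrowest bin, 173 to 214 bp, and in the widest, 335 to 2098 bp, 36.8% were. The forkhead share of reproduced peaks was 23.3%, 36.1%, 43.5% and 41.2% from the narrowest bin to the widest. That of replicate 1 only peaks was 34.6%, 38.0%, 40.0% and 33.0%. The intervals of both groups overlapped in every bin but the widest, so no order between the groups can be read in those bins. In the narrowest bin the interval of reproduced peaks ran from 9.93 to 42.3. In the widest bin reproduced peaks had the higher share, with an interval of 37.1 to 45.4. The upper limit for replicate 1 only peaks there was 36.1.

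Forkhead and AP-1 matches stood together most often at reproduced sites. Both were present in 14.8% of reproduced peaks (interval 12.4 to 17.3) and 8.21% of replicate 1 only peaks (interval 7.47 to 8.99). Forkhead without AP-1 stood in 222 of 854 and 28.4%, AP-1 without forkhead in 17.1% and 16.9%, and neither in 42.2% and 46.5%. In reproduced peaks AP-1 stood in 36.2% of those with a forkhead match and 28.9% of those without. In replicate 1 only peaks the order was the other way, with 22.4% and 26.7%. These combinations were not tested. A single forkhead match was the rule: of 348 reproduced peaks with one, 37 held 2 and 2 held 3.

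The peaks of replicate 2 only carried neither sequence above its control. A forkhead match was present in 12 of 246 (4.88%, interval 2.55 to 8.37) and AP-1 in 11 (4.47%), both within the intervals of their controls, 5.39% (interval 4.06 to 6.99) and 3.26% (interval 2.24 to 4.56). The forkhead share lay 31.7 points below that of replicate 1 only peaks, a comparison added after the values were seen. With 1 library on each side, it cannot measure a difference between replicates. Their leading word was GGCTGTG, in 13.0% of windows against 4.30% of the control windows of replicate 1. Mean GC content was 51.9% ± 7.09 (SD over 246 windows), against 46.5% ± 6.07 over 854 reproduced and 44.9% ± 6.46 over 5179 replicate 1 only windows. Bases that the assembly marks as repeats made up 28.1% of their windows and 11.9% of reproduced windows, with 33.6% in their controls. On chromosome 5 lay 73 of the 246 (29.7%) and on chromosome 1 lay 42 (17.1%), where reproduced peaks had 7.26% and 10.2%. Between 3 and 11 Mb of chromosome 5 alone lay 45 of them, against 4 reproduced and 48 replicate 1 only peaks. Outside that stretch 11 of 201 held a forkhead match (5.47%).

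**Figure D3:**
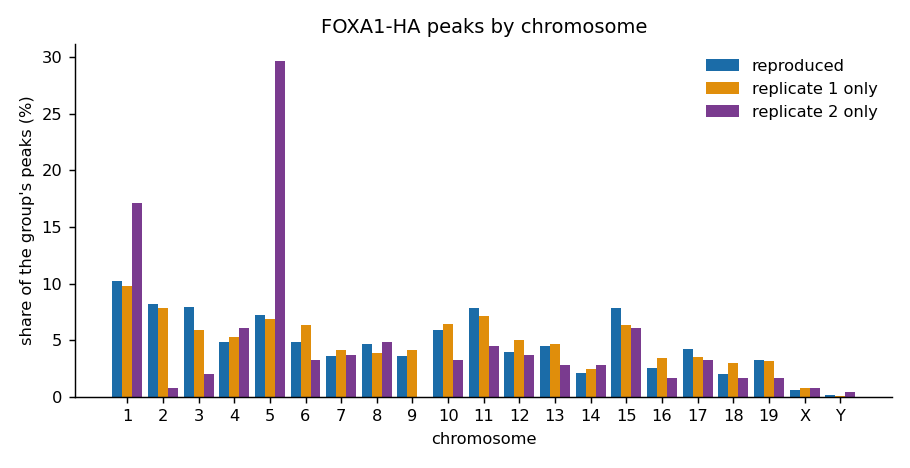
Share of each group's peaks (y axis, %) on each chromosome (x axis) for reproduced (854), replicate 1 only (5179) and replicate 2 only (246) FOXA1-HA peaks. The last group has 29.7% of its peaks on chromosome 5 and 17.1% on chromosome 1.

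Most FOXA1 sites lay over 10 kb from gene starts, as did most points 5 kb downstream of them. Of the reproduced peaks, 47 of 854 had a midpoint no more than 1 kb from where a protein-coding transcript begins (5.50%), 18.7% lay 1 to 10 kb away, 56.6% 10 to 100 kb and 19.2% over 100 kb, with a median of 28528 bp. Replicate 1 only peaks had 5.62% within 1 kb (Fisher's exact test against reproduced peaks, adjusted p = 0.936) and a median of 32722 bp. Over lists the promoter share was 5.60% and 6.55%, and that of the other constructs ran from 2.19% in CDX2-HA to 45.3% in TEAD1-HA with a median of 9.20% (exact permutation p = 0.387, adjusted p = 0.516; without the library labelled MAX-HA, exact permutation adjusted p = 0.566). Of the points 5 kb downstream of replicate 1 peaks, 2.82% lay within 1 kb of a start, 52.5% at 10 to 100 kb and 23.1% over 100 kb, beside 5.60%, 53.0% and 22.9% of the peaks themselves. Introns held 47.7% of reproduced peaks and 45.8% lay between genes, and coding exons held 7 peaks, all 7 at sites of 10 or more other constructs. Of the 47 promoter peaks 22 held a forkhead match (46.8%, interval 32.1 to 61.9) and 7 held AP-1 (14.89%). Of the 483 peaks 10 to 100 kb away 42.9% held a forkhead match and 35.0% held AP-1. Replicate 1 only peaks showed the same order, with AP-1 in 12.7% of 291 promoter peaks and 25.9% of 2717 peaks at 10 to 100 kb, and forkhead in 51.5% and 35.5%. None of these splits by distance was tested.

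Most FOXA1 sites were shared with other constructs. BHLHB8-HA, a basic helix-loop-helix factor of secretory cells with the longest lists, touched 81.7% of reproduced peaks, although its peaks cover 1.37% of the genome. SOX2-HA touched 78.0%, the library labelled MAX-HA 74.4%, the homeodomain factors DLX6-HA and DLX1-HA 72.0% and 63.0%, SOX15-HA 42.3% and SIX6-HA 38.8%. Read from the other side, FOXA1-HA touched 5.20% of the merged BHLHB8-HA peaks, 15.2% of SOX2-HA, 17.7% of DLX6-HA and 13.9% of DLX1-HA. A peak of each of BHLHB8-HA, SOX2-HA, DLX6-HA and DLX1-HA was present at 437 of 854 reproduced sites (51.2%, interval 47.8 to 54.6) and 31.4% of replicate 1 only sites. TEAD1-HA, with 14959 peaks of which 45.3% lie at promoters, touched 1.99% of reproduced peaks.

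At replicate 1 only sites the share was lower for all 21 constructs, with 68.5% for BHLHB8-HA, 61.3% for SOX2-HA and 59.7% for DLX6-HA. Replicate 1 only peaks were also narrower, with a median of 253 bp against 365 bp for reproduced peaks. The library labelled MAX-HA showed the widest gap, 27.5% (interval 26.3 to 28.7) against 74.4% (interval 71.3 to 77.3) at reproduced sites (Fisher's exact test, adjusted p = 3.56e-149), and among replicate 1 peaks of at least 300 bp the shares were 41.6% of replicate 1 only and 79.7% of reproduced peaks. BHLHB8-HA was also the leading neighbour of replicate 2 only peaks, with 50.4%, and SIX6-HA and SOX15-HA touched 37.8% and 32.1% of them. The SOX2-YPET OCT4-HA list touched 39.0% (interval 32.9 to 45.4), RHOX11-HA 37.8%, SOX2-HA 18.3% and DLX6-HA 7.32%. The SOX2-YPET OCT4-HA list touched 6.32% of reproduced and 0.792% of replicate 1 only peaks.

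**Figure D4:**
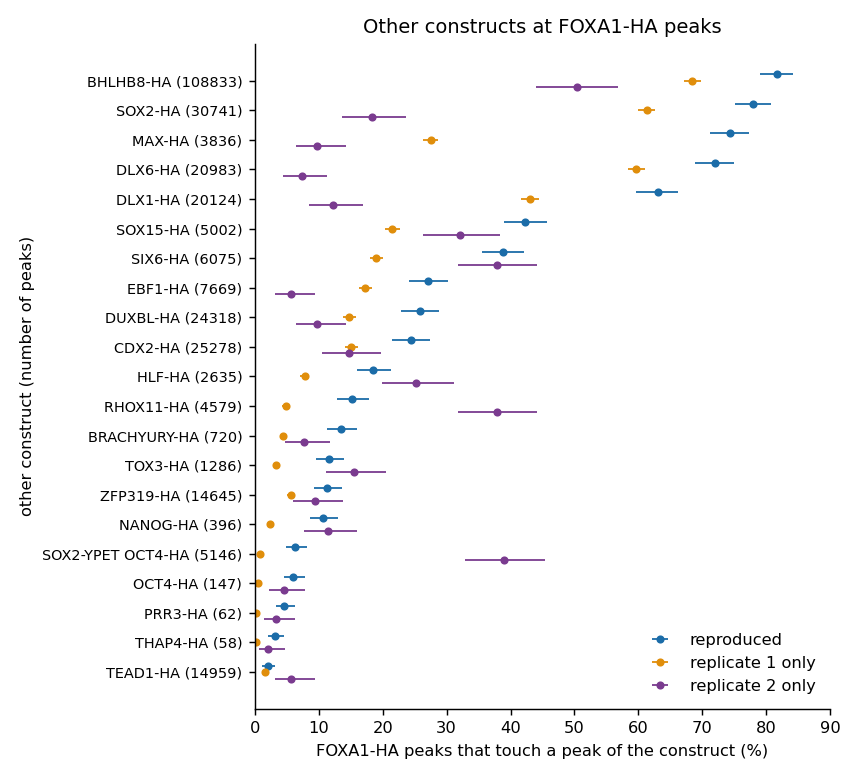
Share of FOXA1-HA peaks that touch a peak of each other construct (x axis, %) for reproduced, replicate 1 only and replicate 2 only peaks, with 95% exact intervals and the number of peaks of the construct in parentheses. Reproduced peaks lead with 81.7% for BHLHB8-HA, and the library labelled MAX-HA falls from 74.4% to 27.5% in replicate 1 only peaks.

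Forkhead matches thinned out as more constructs shared a site. Over all FOXA1-HA sites, counted as the replicate 1 peaks and the replicate 2 peaks that touch none of them, 766 were touched by no other construct, and 49.5% of these held a match (interval 45.9 to 53.1) against 34.0% of the 5513 shared sites (interval 32.8 to 35.3; Fisher's exact test, adjusted p = 8.37e-16). AP-1 went the other way, with 15.4% of the sites of FOXA1 alone and 26.6% of shared sites (Fisher's exact test, adjusted p = 6.73e-12). Both differences kept their direction when the library labelled MAX-HA was not counted, at 17.6 and -10.5 points. The forkhead difference rested on replicate 1: in the replicate 2 list taken by itself 21.5% of the peaks alone and 34.2% of the shared peaks held a match, a difference of -12.7 points (Fisher's exact test, adjusted p = 0.0202), and that list's peaks alone include 61 of replicate 2 only. In reproduced peaks the forkhead share was 56.7% with no other construct (interval 37.4 to 74.5, 30 peaks), 53.3% with 1 to 4, 39.7% with 5 to 9 and 15.6% with 10 or more (interval 9.81 to 23.1). The corresponding shares of replicate 1 only peaks were 53.0%, 41.6%, 26% and 12.5%. Without counting the library labelled MAX-HA the reproduced shares were 50.0%, 52.8%, 38.3% and 9.80%.

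**Figure D5:**
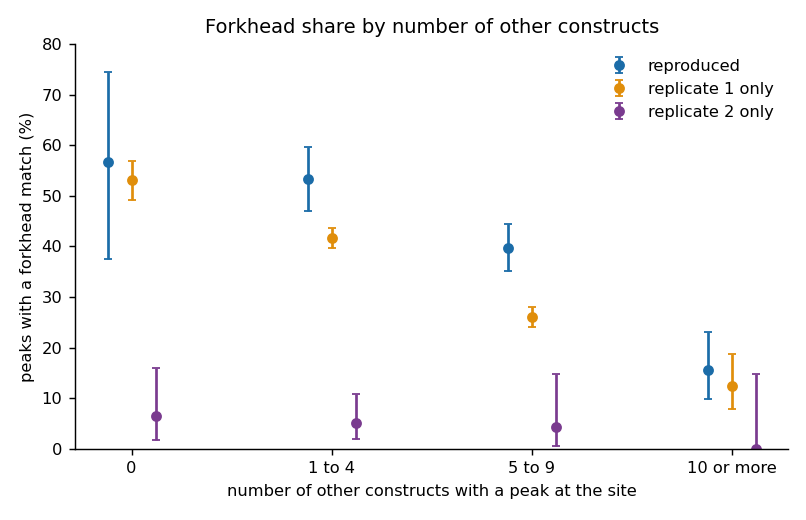
Share of FOXA1-HA peaks with a forkhead match (y axis, %) by the number of other constructs with a peak at the site (x axis), with 95% exact intervals. In reproduced peaks it falls from 56.7% with none to 15.6% with 10 or more, and in replicate 2 only peaks it stays at or below 6.56%.

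Sites of 10 or more other constructs made up 128 of 854 reproduced peaks (14.99%, interval 12.7 to 17.6) and 160 of 5179 replicate 1 only peaks (3.09%, interval 2.64 to 3.598; Fisher's exact test, adjusted p = 3.87e-37), and without the library labelled MAX-HA the shares were 11.9% and 2.16%. Among replicate 1 peaks of at least 300 bp, with the groups kept, the gap was smaller, at 14.5% and 6.72%. The reproduced peaks outside sites of 10 or more other constructs had a forkhead match in 45.2% and AP-1 in 34.6%. Against other constructs the share of such sites, 4.77% and 13.2% in the FOXA1-HA lists, did not stand apart (exact permutation adjusted p = 0.854, and 0.918 without the library labelled MAX-HA). Over all FOXA1-HA sites, those that touched the library labelled MAX-HA held a forkhead match in 40.4% of 2082 cases and those that did not in 33.7% of 4197 (Fisher's exact test, adjusted p = 2.77e-07). The E-box was counted by group. It stood in 2.68% of 635 reproduced peaks that touched that library and 2.74% of 219 that did not. In replicate 1 only peaks the E-box shares were 2.46% of 1423 and 3.04% of 3756.

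Peaks of the mutants met reproduced sites more often than sites of 1 replicate. Of 151 FOXA1_RR-HA peaks, 82 touched a reproduced peak (54.3%, interval 46.0 to 62.4), 25 touched peaks of replicate 1 only and 22 those of replicate 2 only. The other 22 touched no FOXA1-HA peak (14.6%). Of 147 FOXA1_SW-HA peaks the numbers were 58 (39.5%, interval 31.5 to 47.8), 12 and 29, and 48 touched no FOXA1-HA peak (32.7%). Of the 82, 18 held a forkhead match and 50 lay at 10 or more other constructs. Of the 58, 1 held a match and 53 lay at such sites.

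Genes were taken as near a FOXA1 site when the midpoint of a peak lay within 50 kb of a start of a protein-coding transcript. A reproduced site was near 963 of 21829 protein-coding genes (4.41%), and any FOXA1-HA peak was near 5146 (23.6%). Nearness does not show that FOXA1 acts on a gene, and no expression was measured. The gene with the most reproduced sites was Sfi1, which encodes a centrosomal protein, with 6, followed by Gm17019 with 5 and by 4930572O03Rik and Eif4enif1 with 4 each. Eif4enif1, the gene of a carrier of the translation factor eIF4E, shares its 4 with Sfi1 on chromosome 11, and the sites of Gm17019 and 4930572O03Rik lie in a stretch of chromosome 5, from 14.9 to 15.7 Mb, that holds all 3 of Gm17019, 4930572O03Rik and Gm10354. That stretch held 12 reproduced peaks, all 12 at 10 or more other constructs and 1 with a forkhead match. The stretch from 3.1 to 3.2 Mb of chromosome 11, over Sfi1, held 11, of which 10 were so widely shared and 1 had a match. 1600014C10Rik and Gm10354, with 3 each, also had all their reproduced sites at 13 or more other constructs. Thap1, a zinc-finger factor gene, had 3 replicate 1 peaks that fall on a single 1499 bp peak of replicate 2.

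In all 17 genes had 3 or more reproduced sites, and the 10 described are those with the most, ties going to the nearest site. Nedd9, which encodes a scaffold of focal adhesions, had 3 sites 6.77, 37.7 and 44.3 kb from its start, all in introns and each with 1 forkhead match, and the nearest, 330 bp wide in replicate 1 and 269 bp in replicate 2, was touched by no other construct. Spns2, the exporter of sphingosine-1-phosphate, had them at 2.39, 6.37 and 10.7 kb, with a match in the latter pair. Rbpj, the DNA-binding partner of Notch, had them at 8.61, 28.3 and 35.9 kb with no match, AP-1 at the farthest, and 5 to 7 other constructs.

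Genes of the programmes that FOXA1 serves in epithelia are set beside all genes, of which 4.41% had a reproduced site. Of 24 liver and endoderm genes 1 had one within 50 kb (4.17%), the apolipoprotein gene Apoa2, with a 343 bp peak 40.5 kb away that held a forkhead match. Any FOXA1-HA peak was near 4 of the 24 (16.7%), beside 23.6% of all genes. Of 18 breast and prostate genes 1 had a reproduced site (5.56%), the keratin gene Krt19, 13.6 kb from its start with a match, but any peak was near 11 (61.1%), among them Esr1, Gata3, Xbp1, Greb1, Krt8 and Krt18. Of 8 lung genes none had a reproduced site, and Sftpb and Scgb1a1 had a peak of 1 replicate. Among 18 targets of the related FOXO factors, Cdkn1b, an inhibitor of cell cycle kinases, had a reproduced site 16.3 kb away with a forkhead and an AP-1 match, Ccng2 had one 28.7 kb away with AP-1, and 8 had any peak (44.4%). These are counts beside the background and were not tested.

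Genes of the fibroblast itself are set beside the same background, 4.41% of all genes for a reproduced site and 23.6% for any peak. Of 26 matrix and identity genes 1 had a reproduced site (3.85%), S100a4, at 10.1 kb with 2 AP-1 matches, and 13 had any peak (50.0%), among them Col1a2, Col3a1, Fn1, Vim and Pdgfra. Of 19 actin and adhesion genes 3 had a reproduced site (15.8%) and 10 had any peak (52.6%). Cnn2, a calponin, had its reproduced site at 3.55 kb with a forkhead match. Flna had one at 22.3 kb, at a site of 12 other constructs. Tpm1, a tropomyosin, had one at 32.0 kb with AP-1 and 1 other construct. With reproduced sites of under 10 other constructs, 2 of 19 remained near one (10.5%), beside 3.76% of all genes. Of 10 genes listed as the AP-1 family Maff alone had a reproduced site, at 12.9 kb, and it is neither a FOS nor a JUN gene. Jun and Junb had a peak of 1 replicate. Of 10 annotated Hippo targets Ccn1, a matricellular protein gene, had 2 reproduced sites, the nearer at 9.16 kb, and 7 had any peak (70.0%).

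Of the 10 gene lists, that of ribosomal protein genes had the highest share with a reproduced site, 14 of 81 (17.3%), beside 4.41% of all genes. The nearest site lay within 5 kb of the start for 7 of the 14, held a forkhead match for 2, and lay at 10 or more other constructs for 7. Examples are Rps27a at 1.06 kb, Rpl10 at 1.12 kb, Rpl7a at 1.14 kb, Rps2 at 1.24 kb and Rpl17 at 1.41 kb, none with a forkhead match, and the Rps2 site was shared with 20 other constructs. With reproduced sites of under 10 other constructs, 7 of 81 remained near one (8.64%), beside 3.76% of all genes. The Rpl10 and Flna sites are the same peak on the X chromosome.

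No reproduced site lay within 50 kb of Foxa1, Foxa2 or Foxa3. The nearest FOXA1-HA peaks were 386, 151 and 108 kb away, all found in replicate 1 only and without a forkhead match. Max had a reproduced site 0.162 kb from a start, chr12:76962194-76962531, which is 338 bp wide in replicate 1 and 255 bp in replicate 2, holds no forkhead match and was touched by 3 other constructs, the library labelled MAX-HA among them.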

How the data were processed

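FOXA1-HA and the other HA-tagged factors were expressed in NIH-3T3 cells and mapped by anti-HA ChIP-seq. The authors aligned paired-end reads to mm10 with STAR 2.5.3a, kept unique alignments, removed duplicates with Picard, kept the autosomes, X and Y, called peaks per sample with MACS2 2.1.1.20160309 in paired-end mode and discarded those falling on input peaks or on the ENCODE blacklist; versions are those of the submitters' processing notes. The deposited lists hold chromosome, start and end in bp and no score or read number, so no depth-based precision can be given. Of 29 samples, 28 have a list, and the Input was not used. Groups and replicate numbers came from the labels, and the study calls the duplicates biological replicates.

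All peaks lay within the chromosomes of GRCm38, whose sequence (RefSeq) and GENCODE vM21 annotation were used. Coordinates count from 1. Overlap meant at least 1 bp, and reproduced sites are counted as replicate 1 peaks. Words were counted on both strands in 200 bp windows. The 2 FOXA1-HA lists, entered as 2 values, were compared with 21 constructs, 1 value each. An exact two-sided permutation test of the difference of means was used. Groups of peaks were compared by Fisher's exact test, two-sided. Benjamini-Hochberg adjustment ran over 4 and 8 results, with a threshold of 0.05. Genes named are the 10 with the most reproduced sites within 50 kb, up to 5 nearest of each gene list, the FOXA genes and Max, and the nearest gene of each printed site (chromosome 18 left out); members of lists with a peak of 1 replicate were named after their values were seen. The values of 1 gene list are not reported here. Members and lists were chosen with earlier results of these data known. On simulated data, 5 planted overlaps were recovered exactly and 4 planted word shares to within 0.279 percentage points. Python 3.11.15, NumPy 2.4.6, SciPy 1.17.1 and Matplotlib 3.10.9 were used.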

Additional observations from a re-analysis of the deposited data

Results flagged for a closer look

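The forkhead share of FOXA1-HA peaks found in 1 replicate differed between the 2 lists, which drew attention because the same sorting gave unlike groups. It was 36.6% in 5179 peaks of replicate 1 only and 4.88% in 246 peaks of replicate 2 only, a difference of 31.7 percentage points. Each side is 1 library, so the error between libraries is unknown. Outside the stretch of chromosome 5 from 3 to 11 Mb, the share of replicate 2 only peaks was 5.47% of 201.

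Forkhead matches also appeared in data outside the FOXA1-HA lists. Of the 1754 peaks of the library labelled MAX-HA that touch no FOXA1-HA peak, 43.5% held a match (interval 41.2 to 45.9), against 6.26% of its control windows, and 3.08% held the E-box.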

How the results depend on the processing

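The 15 results were recomputed under 94 alternatives in all, and in 77 the direction and the call were kept or the value moved little (within its interval, or 1.5 times for a count). Alternatives without the library labelled MAX-HA, and those on replicate 1 peaks of at least 300 bp with their groups kept, were added after the data were seen, and the others were planned. Without that library the forkhead share of FOXA1-HA exceeded other constructs by 29.6 points and passed the threshold. Removing the only construct above FOXA1-HA fixed that outcome. Among lists of at least 500 peaks the share of sites of 10 or more constructs was 4.13 points above the other constructs, and with 5 or more constructs 11.4 points above, in place of 7.51 below, none past the threshold. With peaks under 300 bp dropped from both lists before sorting, which left 209 peaks reproduced and put 472 others of at least 300 bp in the second group, the difference was -1.51 points for forkhead and 3.67 for AP-1, neither past the threshold. With the groups kept it was 6.59 and 9.46, both past it. The promoter difference, -0.115 points, became 0.461 with a reciprocal overlap of 50%, 0.342 outside sites of 10 or more constructs, 0.421 with promoters of 5 kb and 1.16 among replicate 1 peaks of at least 300 bp with the groups kept. For FOXA1 alone against shared sites the forkhead difference was -12.7 points without replicate 1 and 18.1 without replicate 2. The reproduced share of replicate 1 moved to 12.7%, 9.44% and 12.6% with a reciprocal overlap of 50%, at least 300 bp and outside sites of 10 or more constructs, and that of replicate 2 to 69.7% and 68.9% with the first pair. Genes near a reproduced site numbered 227 at 10 kb and 1770 at 100 kb. The cause of these changes was not tested, beyond the distance itself for genes and the new sorting for peaks of at least 300 bp. With 1 FOXA1-HA list the smallest exact permutation p is 0.0909, so leaving out a replicate could not pass. No paired analysis was possible because most other constructs have a single list, each enters as 1 value, and the tests take no block. Depth is unknown and was not equalised.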
